A study of Mus musculus with 11 samples.

Results

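The genes described here encode the complexes that carry the somatodendritic A-type potassium current: the pore subunits Kcnd1, Kcnd2 and Kcnd3, the potassium channel-interacting proteins (KChIPs) Kcnip1, Kcnip2, Kcnip3 and Kcnip4, and the dipeptidyl peptidase-like subunits Dpp6 and Dpp10. They are 9 of the 19938 genes with a singly annotated probe set, and 10 probe sets read them. The family was selected on the level of Kcnip1, which was much lower in Rarb-null than in wild-type (WT) arrays; the other 8 members were added because they belong to the same complexes. Values of Kcnip1 are therefore given as a description with no test. Expression was measured on Affymetrix Mouse Gene 1.0 ST arrays in shell-enriched nucleus accumbens, the ventral part of the striatum, from 6 WT mice and 5 littermates with a null mutation of Rarb, which encodes retinoic acid receptor beta. The labels do not state which part of the gene was deleted. All mice were behaviourally naive males aged 4 to 5 months, bred from heterozygous parents with mixed C57BL/6J and 129SvEms/j ancestry, and each array held the RNA of 1 mouse. The titles and the design text give these group sizes, while the extraction protocol gives them the other way round.

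A-type channels open quickly when a neuron depolarises below its spike threshold and then inactivate. They delay the first spike and limit how far spikes and synaptic potentials spread into dendrites. Kv4 proteins form the pore; KChIPs are EF-hand calcium sensors that bind the cytoplasmic part of the pore subunits and change their surface expression and inactivation; DPP6 and DPP10 are single-pass membrane proteins without peptidase activity that speed up gating. In striatal projection neurons A-type currents, carried by these and other potassium channels, shape the delay before firing. Retinoic acid receptors are nuclear receptors that act as transcription factors when bound by retinoic acid.

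Levels are RMA values (robust multi-array analysis) on the log2 scale, given as means ± SD, and differences are Rarb-null minus WT with the standard error (SE) of a limma fit over 11963 genes. A gene was called at a Benjamini-Hochberg adjusted p under 0.05. Rarb itself spanned 11.70 to 11.81 in the WT group and 9.72 to 10.01 in the Rarb-null group, a difference of -1.86 (SE 0.047). Over all genes tested 2341 were called (19.6%), 1436 lower (12%) and 905 higher (7.56%) in Rarb-null arrays, and for 1334 (11.2%) the arrays of both genotypes did not overlap. With each array centred on its median the split was 939 lower and 1677 higher, and without Rarb-null replicate 3 the calls numbered 1548. The array medians were 7.02 to 7.06 in WT and 7.08 to 7.11 in Rarb-null arrays. A small difference between the groups thus remained in the deposited values, and it varied with brightness. The median difference over genes was 0.0201 with no filter on dim genes and -0.0168 over the genes tested. With a stricter filter it was -0.0276. Interquartile ranges were 3.49 to 3.55 in WT and 3.38 to 3.49 in Rarb-null arrays. Centring shifts all genes of an array alike, so it does not remove such a dependence on brightness. A probe set's brightness depends on its probes, so the levels of different members are not ranked against each other. Projection neuron markers, the genes that define the main cells of this tissue, had a mean over 13 genes of 11.49 to 11.57 in the WT group and 11.22 to 11.35 in the Rarb-null group. In tissue RNA, fewer cells of a type and less RNA per cell cannot be told apart.

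KChIP1, encoded by Kcnip1, is a calcium sensor that binds Kv4 pores and is known from subsets of GABAergic neurons. Its transcript read 10.38 at the lowest, 10.61 at the median and 10.66 at the highest in the 6 WT arrays. The 5 Rarb-null arrays read 9.05, 9.25, 8.96, 9.07 and 9.27. Every Rarb-null array thus lay more than 1 log2 unit below every WT array, while the arrays within a genotype lay close together (SD 0.11 in WT and 0.13 in Rarb-null). The means were 10.56 ± 0.11 (SD, n = 6) and 9.12 ± 0.13 (n = 5). The difference was -1.44 (SE 0.064), a 2.72-fold lower level, or 36.8% of the WT level. Among the 11963 genes tested 8 had a more negative difference. Over 21 alternative settings of the analysis the difference ran from -1.54 to -1.40.

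The RefSeq promoter windows of the members whose arrays did not overlap between genotypes are shown because retinoic acid receptors bind DNA at repeats of a 6-base half-site, and a match in the window shows where such letters lie. Each window runs from 250 bases before to 50 bases after an annotated transcript start in GRCm38.p6. The half-sites searched were AGGTCA or AGTTCA and GGGTCA or GGTTCA, on both strands; matches are in capitals, read along the printed strand, and no other base is. Windows are numbered in the order of transcription. Kcnip1 has 3 annotated starts on the minus strand of chromosome 11, at chr11:33993144-33993443, chr11:33843637-33843936 and chr11:33680633-33680932.
Kcnip1 window 1: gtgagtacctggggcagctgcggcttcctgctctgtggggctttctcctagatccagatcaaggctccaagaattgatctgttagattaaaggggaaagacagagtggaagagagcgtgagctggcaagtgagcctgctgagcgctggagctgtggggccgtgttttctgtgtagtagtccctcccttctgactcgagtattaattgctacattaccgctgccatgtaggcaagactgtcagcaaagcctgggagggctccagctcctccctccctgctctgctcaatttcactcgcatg
Kcnip1 window 2: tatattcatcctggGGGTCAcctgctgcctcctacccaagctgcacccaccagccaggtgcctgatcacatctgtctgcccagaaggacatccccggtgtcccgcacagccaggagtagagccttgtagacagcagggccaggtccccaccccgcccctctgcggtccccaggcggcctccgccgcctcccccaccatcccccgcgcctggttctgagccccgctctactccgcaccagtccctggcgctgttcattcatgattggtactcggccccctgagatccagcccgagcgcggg
Kcnip1 window 3: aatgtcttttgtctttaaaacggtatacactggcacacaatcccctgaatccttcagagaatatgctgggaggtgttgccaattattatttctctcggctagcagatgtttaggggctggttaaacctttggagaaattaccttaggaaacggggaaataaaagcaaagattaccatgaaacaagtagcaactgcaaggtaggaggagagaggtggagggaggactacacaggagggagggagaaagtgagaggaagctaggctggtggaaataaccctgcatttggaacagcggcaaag

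The second window of Kcnip1 holds 1 half-site, GGGTCA, with its first base at position -236 from the transcript start, and the other windows of the gene hold none. The 3 starts lie far apart, and 1 probe set reads the gene, so the arrays do not show which start gave the lower signal. GC content was 54.3%, 66.7% and 45.3% in the order shown. A half-site of any of these spellings was found in 43.7% of all 32851 promoter windows and in 8 of the 15 windows of the family, which has windows for 8 of its 9 genes. Direct repeats of the half-site with 1, 2 or 5 bases between them occurred in 0.588% of all windows and in 0 of the 15.

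The differences of the other KChIP genes were small, at 0.13 for Kcnip4, 0.12 for Kcnip3 and -0.13 for Kcnip2. Kcnip4, whose protein has a variant that blocks rapid inactivation of Kv4 channels, read from 11.16 to 11.24 in WT arrays with a median of 11.20. Its Rarb-null arrays read 11.34, 11.27, 11.33, 11.40 and 11.29. All 5 lay above all 6 WT arrays. The means were 11.20 ± 0.03 (n = 6) and 11.32 ± 0.05 (n = 5), and the difference of 0.13 (SE 0.031) was a rise to 109% of the WT level (limma adjusted p = 0.0134). The call held with any 1 array left out (adjusted p 0.0112 to 0.0348). It did not hold with the level of cortical markers in the model (0.15, adjusted p = 0.0521), with that of oligodendrocyte markers (0.11, adjusted p = 0.0966) or in a fit that dropped the arrays lowest (WT 3 and 4) and highest (Rarb-null 5) in those cortical markers (0.13, adjusted p = 0.0647). Kcnip4 has 2 annotated starts on the minus strand of chromosome 5, at chr5:49285610-49285909 and chr5:48599633-48599932, and both windows hold half-sites read from the opposite strand.
Kcnip4 window 1: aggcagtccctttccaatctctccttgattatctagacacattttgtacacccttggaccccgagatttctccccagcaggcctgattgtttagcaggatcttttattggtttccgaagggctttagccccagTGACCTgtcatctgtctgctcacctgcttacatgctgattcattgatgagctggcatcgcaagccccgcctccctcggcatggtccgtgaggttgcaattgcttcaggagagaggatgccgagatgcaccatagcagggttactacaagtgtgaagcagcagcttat
Kcnip4 window 2: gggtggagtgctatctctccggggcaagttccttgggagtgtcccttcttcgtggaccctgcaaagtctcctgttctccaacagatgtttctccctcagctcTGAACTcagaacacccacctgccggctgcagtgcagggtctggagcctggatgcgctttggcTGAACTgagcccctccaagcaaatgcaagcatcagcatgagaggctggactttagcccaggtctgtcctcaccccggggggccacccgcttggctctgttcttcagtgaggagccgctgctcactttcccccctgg

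Kcnip3 encodes KChIP3, also called DREAM or calsenilin, which besides binding Kv4 channels acts as a calcium-regulated transcriptional repressor and binds presenilins. It read from 11.95 to 12.13 in WT arrays with a median of 12.03. The Rarb-null arrays read 12.15, 12.05, 12.13, 12.17 and 12.27, so the groups overlapped. The difference of 0.12 (SE 0.043; 95% interval 0.025 to 0.211) did not pass the threshold (limma adjusted p = 0.0688). It passed with arrays centred (0.16, adjusted p = 0.0129) and with a trended variance (adjusted p = 0.0419). It also passed without WT replicate 2 (0.14, adjusted p = 0.0373) or Rarb-null replicate 2 (0.14, adjusted p = 0.0416). With cortical marker level in the model it was 0.03 (adjusted p = 0.748).

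Kcnip2 encodes KChIP2, a partner of Kv4.2 and Kv4.3 in brain and heart. It read from 11.17 to 11.37 in WT arrays with a median of 11.30, and 11.18, 11.14, 11.24, 11.24 and 11.01 in Rarb-null arrays. WT replicates 1 and 5 lay within the Rarb-null range, and Rarb-null replicate 5 was the lowest of all. The difference of -0.13 (SE 0.048; 95% interval -0.230 to -0.023) did not pass (limma adjusted p = 0.0801). With oligodendrocyte marker level in the model it was -0.20 and passed (adjusted p = 0.0316), and with cortical marker level it was -0.05 (adjusted p = 0.65).

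**Figure D1:**
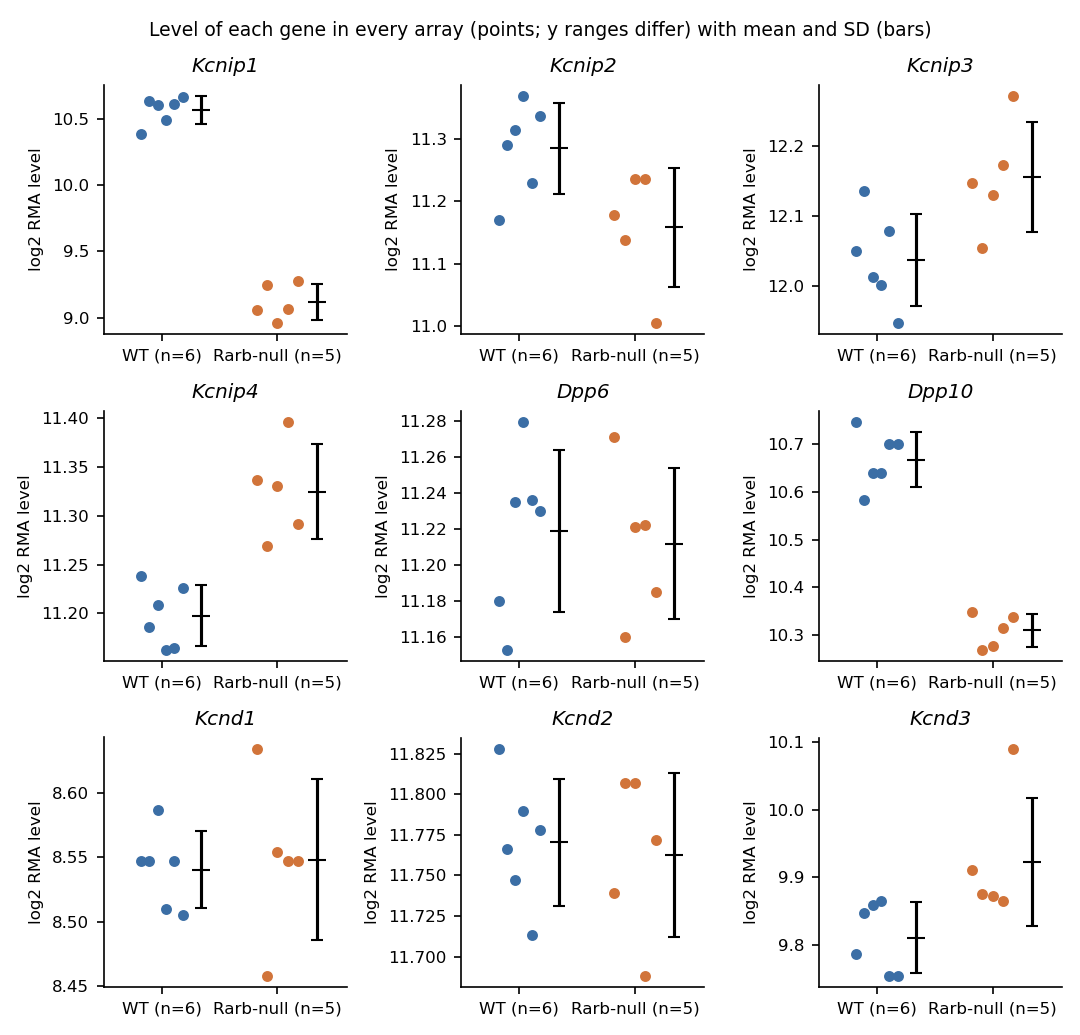
Level of each of the 9 genes in every array (points; log2 RMA level, with a separate y range for each gene), with the mean and SD of each genotype as bars beside the points (6 WT arrays in blue, 5 Rarb-null arrays in orange). The genotypes do not overlap for Kcnip1 (10.38 to 10.66 in WT against 8.96 to 9.27), Dpp10 and Kcnip4, and Rarb-null replicate 5 stands above the other arrays for Kcnd3 at 10.09.

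Dpp10 was the second member with a clearly lower level. The protein binds Kv4 pores, increases their surface expression and speeds their inactivation. The transcript read from 10.58 to 10.74 in WT arrays with a median of 10.67, and 10.35, 10.27, 10.28, 10.31 and 10.34 in Rarb-null arrays. The groups lay well apart, with means of 10.67 ± 0.06 (n = 6) and 10.31 ± 0.03 (n = 5). The transcript fell by 0.36 on the log2 scale (SE 0.034), to 78.1% of the WT level or 1.28-fold lower (limma adjusted p = 1.12e-05). The call held under each of the 21 alternatives, with differences of -0.38 to -0.32 and adjusted p values of 2.72e-06 to 0.000522. The RefSeq window of Dpp10, at chr1:124045510-124045809 on the minus strand, holds no match to the half-sites and is shown for comparison with those of the KChIPs.
Dpp10 window 1: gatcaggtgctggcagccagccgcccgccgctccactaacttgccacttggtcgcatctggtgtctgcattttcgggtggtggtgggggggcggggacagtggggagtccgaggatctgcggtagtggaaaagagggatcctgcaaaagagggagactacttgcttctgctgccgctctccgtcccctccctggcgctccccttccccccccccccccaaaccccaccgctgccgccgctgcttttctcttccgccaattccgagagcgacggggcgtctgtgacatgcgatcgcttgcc

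Dpp6, the paralogue with the same role in the channel complex, is read by 2 probe sets. The brighter one read from 11.15 to 11.28 in WT arrays with a median of 11.23, and 11.27, 11.16, 11.22, 11.22 and 11.18 in Rarb-null arrays, so the ranges nearly coincided. The difference was -0.01 (SE 0.032; 95% interval -0.077 to 0.063; limma adjusted p = 0.899), and with arrays centred the interval reached 0.098. The dimmer probe set varied more. It had a mean of 8.10 ± 0.26 (n = 6) in WT arrays, against 7.85 ± 0.18 (n = 5) in the null group, a difference of -0.25 (SE 0.117; 95% interval -0.50 to 0.0047) that did not pass in a fit over all singly annotated probe sets (limma adjusted p = 0.167).

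No Kv4 pore gene passed the threshold in the deposited values. Kcnd2 encodes Kv4.2, the main dendritic A-type pore in many forebrain neurons. It read from 11.71 to 11.83 in WT arrays with a median of 11.77, and 11.74, 11.81, 11.81, 11.69 and 11.77 in Rarb-null arrays. The groups overlapped over nearly their whole range, and the difference was -0.01 (SE 0.033; 95% interval -0.078 to 0.063; limma adjusted p = 0.89). Kcnd1, the gene of Kv4.1, read 8.50 to 8.59 across WT arrays and 8.63, 8.46, 8.55, 8.55 and 8.55 in Rarb-null arrays. Its difference was 0.01 (SE 0.034; 95% interval -0.065 to 0.080; adjusted p = 0.899). With arrays centred the intervals reached 0.111 for Kcnd1 and 0.118 for Kcnd2, so changes of about that size are not distinguished from 0 here.

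Kcnd3 encodes Kv4.3, which in striatum is known from interneurons as well as projection neurons. It read from 9.75 to 9.86 in WT arrays with a median of 9.82. Among Rarb-null arrays, replicate 5 read 10.09 and the others 9.91, 9.88, 9.87 and 9.86. The lowest Rarb-null array met the highest WT array, so the groups touched. The difference of 0.11 (SE 0.044; 95% interval 0.017 to 0.207) did not pass (limma adjusted p = 0.0884). It passed with arrays centred (0.15, adjusted p = 0.0236) and after quantile normalisation (0.14, adjusted p = 0.0483), and it was 0.07 (adjusted p = 0.174) without Rarb-null replicate 5. With cortical marker level in the model it was 0.07 (adjusted p = 0.494), and with oligodendrocyte marker level 0.09 (adjusted p = 0.308).

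Of the 8 members other than Kcnip1, all of which passed the filter on dim genes, 1 was called lower (Dpp10), 1 was called higher (Kcnip4) and 6 were not called. Their median difference was 0.0001, against -0.0168 over all genes tested. The arrays did not overlap for 2 of the 8. Since Kcnip1 was selected in this same comparison, these counts are given beside the shares over all genes (19.6% called and 11.2% without overlap) and nothing is read from them.

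Paralogues of 1 subunit class were set against each other within each array, which tests whether their differences between genotypes were unequal. In all 7 pairs were compared, leaving out Kcnip1, each with a two-sided exact permutation test over the arrays. The level of Dpp6 minus Dpp10 rose from 0.55 ± 0.07 in WT to 0.90 ± 0.04 in Rarb-null arrays, a change of 0.35 (exact p = 0.00216, the smallest that these arrays can give; Benjamini-Hochberg adjusted over 7 pairs 0.0101). This test used the brighter Dpp6 probe set alone. With the mean of both Dpp6 probe sets the change was 0.23. The dimmer Dpp6 probe set by itself differed by -0.25 (SE 0.117), nearer to the -0.36 of Dpp10, and was not tested against Dpp10. Kcnip2 fell by 0.25 relative to Kcnip4 and by 0.24 relative to Kcnip3 (exact p = 0.00433 and adjusted 0.0101 for each). The change of Kcnip2 relative to Kcnip3 was -0.08 with cortical marker level in the model. Kcnip3 and Kcnip4 differed by -0.01 in their change (exact p = 0.864). Kcnd3 changed by 0.12 more than Kcnd2 (exact p = 0.039, adjusted 0.0636) and by 0.10 more than Kcnd1 (exact p = 0.0455, adjusted 0.0636), which did not pass after adjustment, and Kcnd1 and Kcnd2 differed by 0.02 (exact p = 0.742). These permutations move all 11 arrays freely. Within the 5 same-numbered pairs of arrays, an exact two-sided sign permutation cannot go below 0.0625, so no pair of genes could pass. That smallest p was reached by Dpp6 minus Dpp10 (0.35), Kcnip2 minus Kcnip4 (-0.25) and Kcnip2 minus Kcnip3 (-0.22), each with the same direction in 5 of 5 pairs of arrays, and the other p values were 0.125 to 0.9375.

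**Figure D2:**
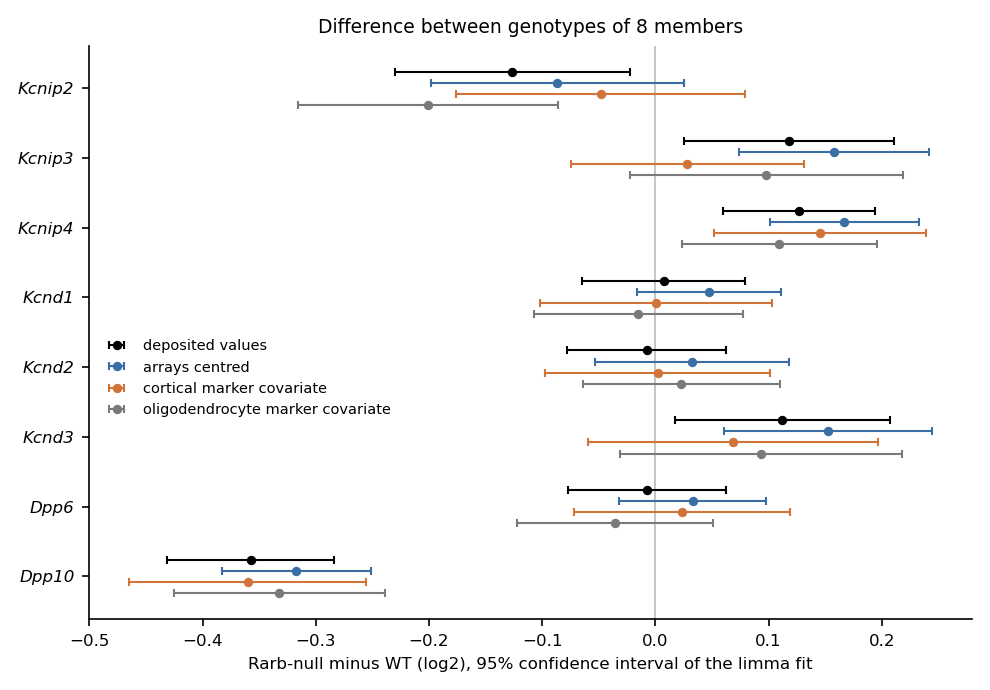
Difference between genotypes (Rarb-null minus WT, log2) of the 8 members other than Kcnip1, with the 95% confidence interval of the limma fit. The 4 fits used the deposited values, arrays centred on the median of the tested genes, and cortical or oligodendrocyte marker level as a covariate. Dpp10 lies between -0.36 and -0.32 in these 4 fits, while Kcnip3 goes from 0.12 in the deposited values to 0.03 with the cortical covariate.

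Markers of other cells differed between the groups, and their values stand here beside the small differences above. The mean of 11 cortical glutamatergic neuron markers spanned 7.46 to 8.26 across WT arrays and 8.12 to 8.79 across Rarb-null arrays (means 7.81 and 8.32). Of 8 tested cortical markers limma called 3 higher and 0 lower (7 and 0 at an unadjusted p under 0.05). The 3 were Lamp5, Cux2 and Fezf2. Slc17a7 (0.90, limma adjusted p = 0.0639) and Tbr1 (0.95, adjusted p = 0.0698), which varied most within WT, were not called. Slc17a6, Neurod6 and Neurod1 were below the filter on dim genes. Rarb-null replicate 5, with the highest cortical level of 8.79, also had the highest Kcnip3 (12.27) and Kcnd3 (10.09) and the lowest Kcnip2 (11.01) of all arrays. WT replicates 2 and 5, at cortical levels of 8.26 and 8.10, were close to Rarb-null replicates 1 to 4 (8.12 to 8.30). In Kcnip3 these WT arrays read 12.13 and 12.08 and those Rarb-null arrays 12.05 to 12.17. In Kcnip4 the WT arrays read 11.19 and 11.16 against 11.27 to 11.40, and in Kcnip1 10.63 and 10.61 against 8.96 to 9.25. In Kcnd3 they read 9.85 and 9.75 against 9.86 to 9.91. The part of cortical cells in these levels was not tested. With cortical marker level in the model the difference was -1.54 for Kcnip1 and -0.36 for Dpp10.

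Interneuron markers also differed. Of 9 tested, the cholinergic genes Chat, Slc18a3 and Slc5a7 were called lower and Npy, Th, Calb2 and Cck were called higher. Slc5a7 differed by -0.42 (SE 0.055) and Cck by 0.79 (SE 0.261). Cck varied widely within WT (SD 0.63), as Slc17a7 of the cortical list did (SD 0.78). Its arrays overlapped, with 8.85 to 10.43 in WT and 10.04 to 10.89 in Rarb-null. Pvalb, Htr3a and Vip were below the filter. Of 9 tested oligodendrocyte markers 3 were called lower, among them Opalin at -0.35 (SE 0.046), and the list mean was 9.37 to 9.56 across WT and 9.25 to 9.47 across Rarb-null arrays. Of 13 projection neuron markers 9 were called lower, and of 8 astrocyte markers 3 were lower and 1 higher. Over all genes tested these shares were 12% lower and 7.56% higher. With the replicate number as a block, 7 of the 8 cortical markers were called higher, 5 of the 8 astrocyte markers lower and 1 of the 7 microglial markers lower. The same block called 8 of the 13 projection neuron markers and 2 of the 9 oligodendrocyte markers lower, fewer than without it. Over all genes tested the block called 1793 lower and 1079 higher. Of 7 microglial markers 0 were called by limma, with 3 at an unadjusted p under 0.05, and of 7 endothelial and mural markers 0 were called, with 0 at that level. The part of any of these cell types in the differences of the A-type genes was not tested.

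**Figure D3:**
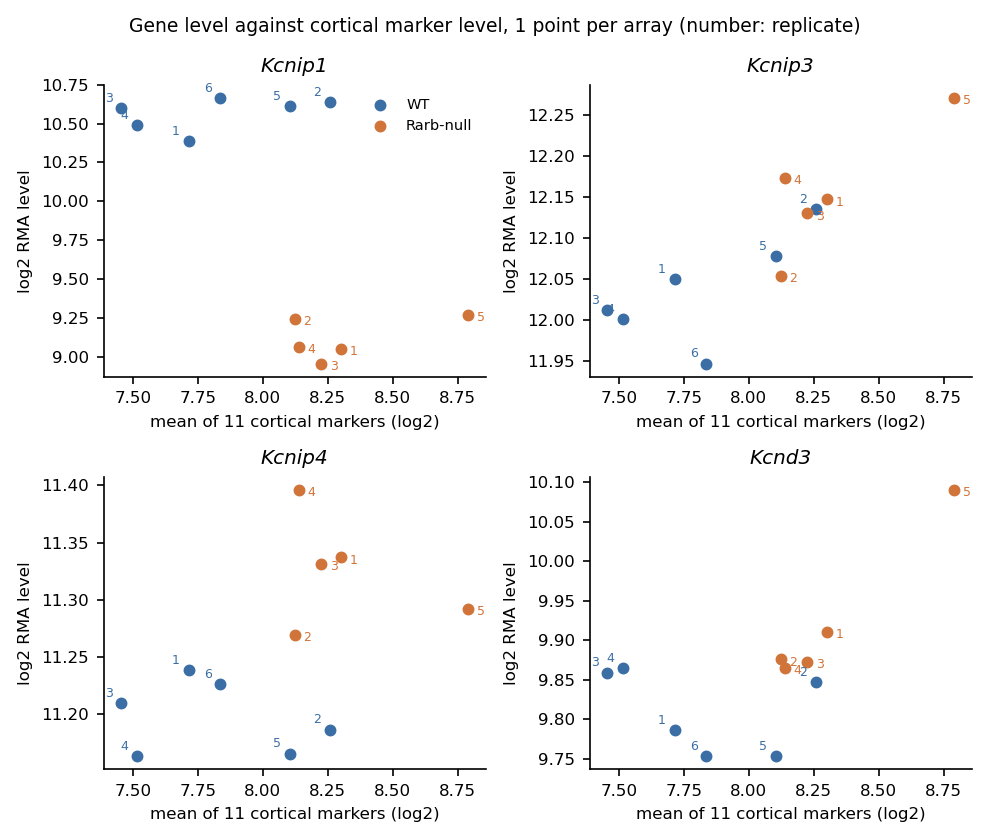
Level of Kcnip1, Kcnip3, Kcnip4 and Kcnd3 (y axis, log2 RMA level) against the mean of 11 cortical markers (x axis, log2) in each array, with the replicate number beside each point (WT in blue, Rarb-null in orange). WT replicates 2 and 5 and Rarb-null replicates 1 to 4 have overlapping cortical levels. In these arrays Kcnip1 read 10.63 and 10.61 in WT against 8.96 to 9.25. Kcnip3 read 12.13 and 12.08 in WT against 12.05 to 12.17. Kcnip4 read 11.19 and 11.16 in WT against 11.27 to 11.40, and Kcnd3 read 9.85 and 9.75 against 9.86 to 9.91. The part of cortical cells in these levels was not tested.

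The genes whose profile over the 11 arrays was nearest to that of Kcnip1, each taken relative to its own WT mean, were Oprk1, Mme, Cartpt, Cfap20dc and Spint1, with root mean square differences from Kcnip1 of 0.14, 0.15, 0.16, 0.17 and 0.20 on the log2 scale. Oprk1, the kappa opioid receptor gene, read 9.67 to 9.86 across WT and 8.15 to 8.43 across Rarb-null arrays. Mme, which encodes the peptidase neprilysin, read 9.55 to 9.87 and 7.96 to 8.41 in the same order. Cartpt, the precursor of a neuropeptide, went from 9.91 ± 0.13 to 8.64 ± 0.13. These genes were picked for their likeness to Kcnip1, so their differences of -1.59 to -1.27 are descriptions.

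A-type current is also carried by other potassium channels, whose genes were taken as a list. Of 8 listed pore and beta subunits outside the Kv4 complex, 7 were measured and tested; limma called 3 lower (against 12% of all genes), 0 higher (1 at an unadjusted p under 0.05, Kcnc4; 7.56% of all genes were called higher) and 4 not, with a median difference of -0.18 against -0.0168 over all genes tested. Kcnab1, whose beta subunit gives Kv1 channels fast inactivation, fell by 0.26 (SE 0.032; limma adjusted p = 0.000102). Its level was 11.91 to 12.02 across WT and 11.65 to 11.75 across Rarb-null arrays. Kcna4, the gene of the fast-inactivating Kv1.4, fell by 0.27 (SE 0.049; adjusted p = 0.00218), with 10.13 to 10.40 across WT and 9.89 to 10.06 across Rarb-null arrays. Its call was lost with cortical marker level in the model (-0.20, adjusted p = 0.059). Kcna1, the gene of Kv1.1, which beta subunits of the Kcnab1 type make inactivate, fell by 0.20 (SE 0.032; adjusted p = 0.000808), with 11.02 to 11.17 across WT and 10.87 to 10.92 across Rarb-null arrays. In these 3 called genes the genotypes did not overlap, against 11.2% of all genes tested without overlap. The 13 projection neuron markers had a median difference of -0.22, and 9 of them were called lower. Their level was not in any fit, and its part in the differences of these channel genes was not tested.

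Kcnc4, the gene of the fast-inactivating Kv3.4, went the other way in the deposited values without passing, at 0.24 (SE 0.092; limma adjusted p = 0.0788). It was called higher with the replicate number as a block, which drops WT replicate 6 as unpaired (0.23, adjusted p = 0.0151), with arrays centred (0.28, adjusted p = 0.0412), and without WT replicate 2 (0.28, adjusted p = 0.0461) or Rarb-null replicate 4 (0.30, adjusted p = 0.0425). With cortical marker level in the model its difference was -0.02. Kcna2, Kcnab2 and Kcnab3 were not called, at -0.04, 0.02 and -0.18 (limma adjusted p = 0.564, 0.728 and 0.262). With the replicate block Kcnab3 was called lower (-0.27, adjusted p = 0.0123), which made 4 genes of the list lower and 1 higher.

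Among 16 listed regulators and scaffolds of Kv4 channels, 11 were measured and 7 passed the filter on dim genes; Kcne1, Kcne2, Kcne3 and Kcne4, genes of small accessory subunits, did not. Of the 7, limma called 1 lower, 0 higher (0 also at an unadjusted p under 0.05) and 6 not, with a median difference of 0.02. This count is near the 12% of all genes called lower. Dlg1, which encodes the scaffold SAP97 that carries Kv4 channels to synapses, fell by 0.25 (SE 0.035; limma adjusted p = 0.000312), with 11.35 to 11.54 across WT and 11.16 to 11.24 across Rarb-null arrays. The kinase gene Camk2a (0.02, SE 0.036), the protein kinase A gene Prkacb (0.03, SE 0.030) and the filamin gene Flna (0.02, SE 0.043) were not called.

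For KChIP3 in its role as DREAM, 10 partners and target genes were listed, of which 9 were measured and 7 tested. Of these, limma called 1 lower, 0 higher (0 also at an unadjusted p under 0.05) and 6 not, with a median difference of -0.07, a count again near the 12% called lower over all genes. Pdyn, the prodynorphin gene that DREAM is known to repress and also 1 of the projection neuron markers, fell by 0.22 (SE 0.073; limma adjusted p = 0.0464). Its arrays overlapped, with 10.18 to 10.60 in WT and 10.10 to 10.29 in Rarb-null. The call was lost under 13 of 21 alternatives, with adjusted p values up to 0.276; among these were the cortical covariate (-0.20, adjusted p = 0.239), arrays centred (-0.18, adjusted p = 0.093), and the loss of any 1 array other than WT replicates 1 and 6 and Rarb-null replicate 4 (adjusted p 0.0675 to 0.102). Npas4 (-0.29, SE 0.150), an activity-regulated transcription factor gene, Slc8a3 (-0.06, SE 0.032), a sodium-calcium exchanger gene, and Crem (-0.08, SE 0.054) were not called. Crem passed with the replicate number as a block (-0.11, adjusted p = 0.0485).

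**Figure D4:**
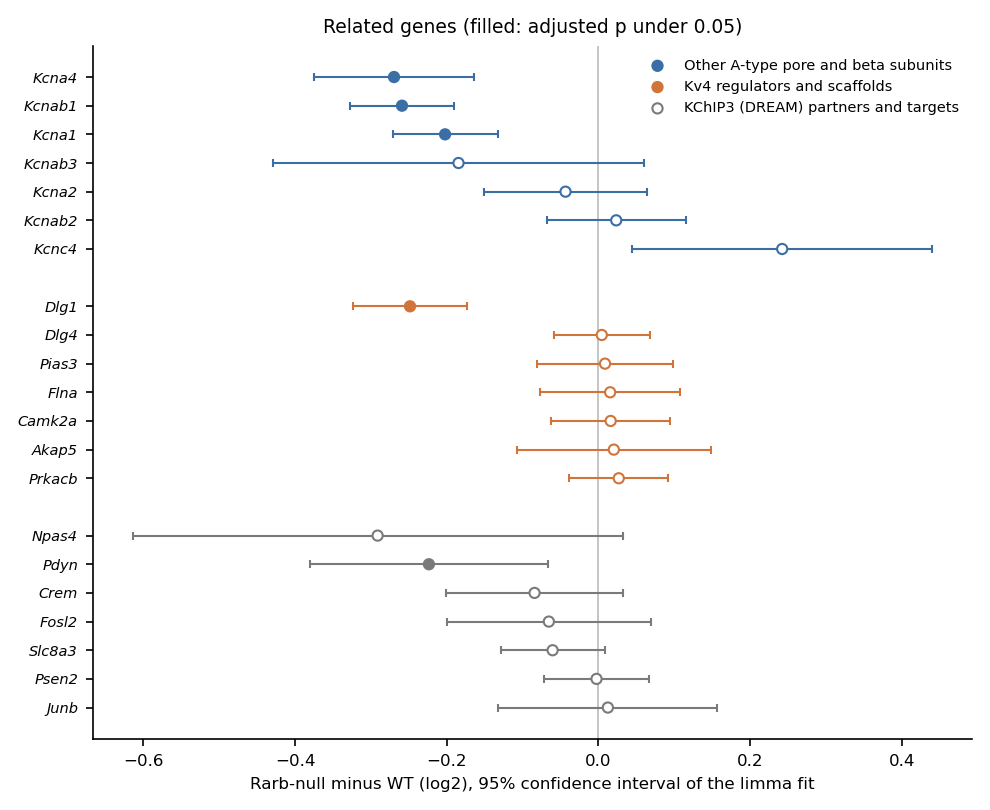
Difference between genotypes (Rarb-null minus WT, log2) with the 95% confidence interval of the limma fit for the 21 tested genes of the 3 related lists; filled points passed an adjusted p of 0.05. Kcna4, Kcnab1 and Kcna1 lie at -0.27, -0.26 and -0.20, and Dlg1 lies at -0.25 while the other Kv4 regulators lie near 0.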

How the data were processed

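The deposited values were log2 expression after log-scale RMA (background subtraction, quantile normalisation and probe summary), per the labels (the submitters' processing notes also name RMA); base 2 was inferred from their range. RMA compresses folds of dim probe sets. Its version, the annotation and the joint normalisation of arrays are not given in the sources used here. RNA (100 ng) came from bilateral 0.5 mm punches of 3 sections of 300 µm per brain, per the labels' protocols.

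Of 35556 probe sets, 21789 had 1 symbol and were used, with symbols updated through Entrez identifiers (RefSeq, GRCm38.p6). The brightest probe set represented a gene, and the test took genes whose mean exceeded the 40th percentile (6.99). limma 3.58.1 (R 4.3.3; lmFit, eBayes, no covariates) compared genotypes, with Benjamini-Hochberg adjustment over all 11963 genes. The fit was checked on simulated arrays with independent noise for each gene. The check therefore does not cover marker levels shared by many genes, differences in array scale or pairing of arrays. The number of arrays limits the precision.

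Replicate numbers in the titles were checked for pairing. Deviations from the group means of same-numbered arrays correlated at 0.13 to 0.28 in 5 pairs over singly annotated probe sets, all above 0.1. WT replicate 6 has no partner. Such deviations cancel within a group, so the covariances of all WT with all Rarb-null arrays cancel in total. Those of differently numbered arrays are therefore negative on average. Same-numbered arrays were thus more alike on average, and what this likeness reflects was not tested. The main fit and the free permutations did not use the numbers, and a fit with the number as a block was an alternative. Others were no filter or a stricter one (60th percentile), centring, quantile normalisation, the mean of probe sets, a trended variance, marker covariates, a threshold of 0.01 and leaving out each array. Leaving out WT replicates 3 and 4 and Rarb-null replicate 5, with the lowest and highest cortical marker levels, was added after seeing the data, as were the comparisons of paralogues, their paired form and the block on marker lists. The members and lists were chosen with earlier results of these data known. Named genes were all members, Rarb, up to 4 genes of each related list with the smallest p, the 5 profiles nearest to Kcnip1 and, as examples of marker lists, up to 2 with the largest difference; Kcna2, Kcnab2, Kcnab3 and the remaining marker and Kcne genes were named after their values were seen. Figures used matplotlib 3.10.9.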

Additional observations from a re-analysis of the deposited data

Results flagged for a closer look

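In 3 of 56 groups of arrays examined 1 array lay further from the others than Dixon's test allows at its 95% level, which chance gives in about 5% of groups. Kcnd3 read 10.09 in Rarb-null replicate 5 and 9.86 to 9.91 in the other Rarb-null arrays; this array also had the highest cortical marker level (8.79). Prkacb read 12.29 in the same array and 12.36 to 12.37 in the others. Cartpt read 8.41 in Rarb-null replicate 3 and 8.66 to 8.74 in the other Rarb-null arrays.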

How the results depend on the processing

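There were 189 recomputed member differences (21 alternatives for each of 9 genes). Of these, 166 kept their direction and, for genes other than Kcnip1, their side of the threshold. The 166 include all 21 of Kcnip1, which was selected on its level and given no test, so those 21 are only a description. The calls over all genes numbered 2341 and became 1185 (805 lower, 380 higher) with the cortical covariate, 1252 (868 and 384) with the oligodendrocyte covariate, 1342 (870 and 472) without the 3 arrays of extreme cortical level, 970 (637 and 333) at a threshold of 0.01, 1548 to 2582 with 1 array left out (966 to 1570 lower, 582 to 1012 higher), 939 lower and 1677 higher with arrays centred, and 510 higher with the stricter filter. Members called lower numbered 2 with the oligodendrocyte covariate. Members called higher numbered 3 with arrays centred, 2 with quantile normalisation or a trended variance, 1 to 2 with 1 array left out, and 0 with either covariate, without those 3 arrays or at 0.01. In the list of other A-type genes, 1 was called higher with arrays centred or with the replicate block and 0 to 1 with 1 array left out, and the genes called lower numbered 4 with the block. The KChIP3 list had 2 genes called lower with the replicate block, 0 to 1 with 1 array left out, and 0 without a filter, with arrays centred, with quantile normalisation, with the cortical covariate, without the 3 arrays or at 0.01. Among members and related lists, the replicate block changed the calls of Kcnc4, Kcnab3 and Crem and no other; its effect on marker counts stands beside them. These differences changed sign without passing in the turned direction. Kcnd1 went to -0.015 with the oligodendrocyte covariate and -0.014 to 0.030 with 1 array left out. Kcnd2 went to 0.032 with arrays centred, 0.0020 and 0.023 with the cortical and oligodendrocyte covariates and -0.019 to 0.011 with 1 array left out. Dpp6 went to 0.033 with arrays centred, 0.0002 with quantile normalisation, 0.024 with the cortical covariate, 0.019 without the 3 arrays and -0.022 to 0.0058 with 1 array left out. Kcnc4 went to -0.024 with the cortical covariate. Camk2a went to -0.0053 with the oligodendrocyte covariate and -0.0067 to 0.040 with 1 array left out. Flna went to -0.061 with the oligodendrocyte covariate, -0.0094 with the replicate block and -0.0094 to 0.035 with 1 array left out. The cause of these changes was not tested. The deposited values hold no background measure, so how far each gene lay above it was not assessed; dim genes have compressed differences.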

Other observations

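Kcnd1 held 1 identical deposited value, 8.547, in 5 of the 11 arrays, 3 of them WT and 2 Rarb-null. Among all genes tested, 239 (2.0%) held the same value in at least 5 arrays and 4443 (37.1%) in at least 2. Its SD of 0.03 in WT and 0.06 in Rarb-null arrays therefore rests on fewer distinct values than there are arrays.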
